A study of Mus musculus with 6 samples.

Results

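The VEGF family and its receptors were followed as 9 genes: the 4 ligand genes Vegfa, Vegfb, Vegfc and Pgf, the 3 receptor tyrosine kinase genes Flt1, Kdr and Flt4, and the 2 neuropilin genes Nrp1 and Nrp2. They were taken by gene symbol, which each occurred once among the 56884 genes of the count matrices, so all 9 were found in all 6 libraries. VEGF-A is the main growth factor for blood vessel endothelium and acts mainly through VEGFR2, the product of Kdr. VEGFR1, the product of Flt1, binds VEGF-A tightly but signals weakly and is generally regarded as a decoy, and it is also the receptor of VEGF-B and placental growth factor (PGF). VEGF-C and VEGFR3, the product of Flt4, drive growth of lymphatic vessels, and neuropilins serve as co-receptors for VEGF as well as for class 3 semaphorins. In the lung, alveolar type 1 (AT1) cells are a known source of VEGF-A, and one of the 2 kinds of alveolar capillary cell, the aerocyte (aCap), is known to depend on it. The other kind is the general capillary cell (gCap). In the postnatal brain astrocytes are a known source of VEGF-A.

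Single-cell RNA libraries had been prepared from lungs at postnatal day 21 (P21) of Bdnf lox/lox, Bdnf iPCKO, Hgf lox/lox and Hgf iPCKO mice, and from the cerebral cortices of Nodal lox/lox and Nodal iPCKO mice at P12. iPCKO stands for inducible deletion by a tamoxifen-activated Cre recombinase, Pdgfrb-CreERT2, which is active in mural cells (pericytes and smooth muscle cells) and little in fibroblasts with low PDGFRβ. The lox/lox littermates served as controls. Whether they carried CreERT2 was not given in the sources used here. All 6 groups had received 50 µg tamoxifen per day from P1 to P3. Each genotype was 1 library made from the pooled cells of 2 mice, whose sex was not given. Blood cells (CD45 and Ter119) had been depleted from the lung samples, and meninges and myelin debris had been removed from the cortex samples. There is therefore no replicate of any genotype: values are given per library, the intervals beside them cover counting error only, and no test between an iPCKO library and its control was made.

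The libraries held 33889545 to 186701379 unique molecular identifiers (UMIs, each standing for 1 captured RNA molecule), and 3237 to 24311 barcodes passed the minimum of 1500 UMIs (700 in the Hgf libraries). Any 2 libraries shared 21 to 457 of these barcodes. In proportion, the number was furthest above that of equal use of the barcode set for the Nodal iPCKO cortex, with 108 against 80.2 shared with the Hgf control and 116 against 88.7 with the Hgf iPCKO lung. Of the deleted genes, Nodal was at 124 CPM (the share of a gene in all UMIs of the cells, scaled to a fixed total) in pericyte-like cells of the control cortex and at 0 in the iPCKO cortex, Hgf was at 165 and 22.5 CPM in the same cell type of the Hgf lox/lox and Hgf iPCKO lungs, and Bdnf had 5 and 3 UMIs in those of the Bdnf lungs, too few to check the label. The 0 for Nodal allows a level of up to 1.32 CPM. Since the reads come from the 3' end of transcripts, they may lie outside the deleted part of a gene. The 2 lung controls give the only view of differences without a deletion: Kdr over all endothelial-like cells differed by 0.68 between them on the log2 scale (Hgf control minus Bdnf control, as in all such differences below), against 0.44 between the Bdnf iPCKO library and its own control. The aCap-like cells made up 13.2% and 20.8% of endothelial-like cells in the Bdnf and Hgf controls and 18.5% in the Bdnf iPCKO library. Kdr differed between the controls by 0.04 in aCap-like and 0.34 in gCap-like cells. The part of this makeup in the pooled differences was not tested. The 2 controls also differed in their lox/lox gene, in the UMI minimum (1500 and 700) and in depth. Endothelial-like cells had medians of 4227 and 2175 UMIs per barcode. Cell types were scaled within each pair, so that the 2 controls were not assigned on one scale. The part of these in differences between the controls was not tested.

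Cell types were assigned to single barcodes from marker genes, none of which is one of the 9 genes, and a type is called X-like for that reason. Summed over the 7 endothelial markers, endothelial-like cells held 7341 to 9285 CPM and the other barcodes 248 to 951 CPM. The 8 AT1 markers summed to 19181 to 34098 CPM in AT1-like cells. Some gates held markers of a second cell type. The aCap-like cells held AT1 markers, with values given beside Vegfa. The venous-like cells of the lung held 3986, 3579.9, 3462 and 2439.9 CPM of gCap markers beside 7977, 6972, 9488 and 7904 CPM of venous markers. Venous-like cells of the cortex held 3879 and 3677 CPM of capillary markers, against 12658 and 10842 CPM in capillary-like cells. Their venous markers summed to 1231 and 1178 CPM. A level in CPM is a gene's share of the UMIs of the cells of one type in one library. Levels were compared between cell types and libraries for 1 gene at a time and never between genes.

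The 9 genes lie, in the mouse genome build GRCm39, at chr17:46327919-46343309 (minus strand) for Vegfa, chr19:6958447-6965127 (minus strand) for Vegfb, chr8:54530257-54640131 (plus strand) for Vegfc, chr12:85213409-85224564 (minus strand) for Pgf, chr5:147498414-147662826 (minus strand) for Flt1, chr5:76093487-76139884 (minus strand) for Kdr, chr11:49500090-49543582 (plus strand) for Flt4, chr8:129085085-129231082 (plus strand) for Nrp1 and chr1:62742444-62857854 (plus strand) for Nrp2. All except Pgf overlap at least 1 gene on the opposite strand in the annotation Gencode vM39. Nrp1 and Nrp2 also overlap a gene on the same strand, Mir1903 and Gm37121. No strand setting was among the stated options, and whether the counts hold reads of an overlapping gene on either strand was not tested. For Vegfa, Flt1 and Kdr the 250 bases upstream of the start of the canonical transcript were read from the genome. Vegfa is the ligand found mainly in AT1-like cells of the lung. Flt1 and Kdr are 2 receptor genes of blood endothelium, of which only Kdr separated the capillary types. The windows lie at chr17:46343310-46343559, chr5:147662822-147663071 and chr5:76139119-76139368, all on the minus strand, and are shown 5' to 3' on the strand of the gene. Capitals mark the GC box GGGCGG (bound by SP factors), and the ETS factor motifs CCGGAA and CAGGAA, on either strand.
Vegfa: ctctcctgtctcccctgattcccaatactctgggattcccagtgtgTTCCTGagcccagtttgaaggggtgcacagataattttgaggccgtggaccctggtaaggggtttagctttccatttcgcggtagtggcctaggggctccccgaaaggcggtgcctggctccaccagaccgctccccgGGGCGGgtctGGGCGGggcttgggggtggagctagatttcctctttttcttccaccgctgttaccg
Flt1: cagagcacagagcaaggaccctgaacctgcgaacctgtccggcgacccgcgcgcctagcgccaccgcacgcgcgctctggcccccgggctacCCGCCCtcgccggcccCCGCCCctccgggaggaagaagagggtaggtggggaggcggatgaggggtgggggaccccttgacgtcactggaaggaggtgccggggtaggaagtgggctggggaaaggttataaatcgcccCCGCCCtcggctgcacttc
Kdr: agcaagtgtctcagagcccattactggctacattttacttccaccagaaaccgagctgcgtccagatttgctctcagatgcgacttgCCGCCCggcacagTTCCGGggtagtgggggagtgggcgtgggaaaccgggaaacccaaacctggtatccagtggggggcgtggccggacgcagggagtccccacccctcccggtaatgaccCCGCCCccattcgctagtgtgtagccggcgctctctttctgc
Vegfa had 2 GC boxes and 1 CAGGAA, Flt1 had 3 GC boxes, and Kdr had 2 GC boxes and 1 CCGGAA. These are common letters: over 21757 gene starts, GGGCGG was found in 36.3%, CCGGAA in 12.4% and CAGGAA in 24.5% of windows of this length. The letters ACGTG, a form of the core of the hypoxia response element, were in 17.0% of windows and in none of these 3. The form GCGTG was not counted, and on either strand its letters occur in the Flt1 and Kdr windows. A match is a description of letters and not of a bound site.

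Vegfa stood highest in AT1-like cells of the lung. It was at 5262, 4059.5, 4774 and 3088 CPM in the Bdnf lox/lox, Bdnf iPCKO, Hgf lox/lox and Hgf iPCKO libraries (this order of the 4 lung libraries is kept below). Next came arterial-like cells with 832, 1022, 784 and 686 CPM. Every AT1-like value lay above every arterial-like one, and every arterial-like value above every value of the remaining types. AT1-like cells made up 9.19%, 12.6%, 6.34% and 5.63% of the gated barcodes and held 74.1%, 65.1%, 62.5% and 53.0% of the Vegfa UMIs in them. A lower tier was shared by gCap-like cells, at 416, 431, 563 and 286 CPM, and matrix fibroblast-like cells, at 484, 372, 492 and 267 CPM, whose ranges overlapped. The aCap-like cells, which face AT1 cells across the thin alveolar wall, had 76.2, 143, 81.3 and 82.1 CPM, and gCap-like cells were above them in all 4 libraries, with a mean difference of -2.15 (log2, aCap minus gCap; exact paired permutation test over libraries, two-sided p = 0.125, the smallest that 4 pairs can give).

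Markers of AT1 cells, the type with most Vegfa, were also counted in capillary cells. They summed to 509.9, 844, 977 and 1290.1 CPM in gCap-like cells and to more, 1604, 2698, 2702 and 4067 CPM, in aCap-like cells. With all gCap-like barcodes holding a UMI of an AT1 marker left out, Vegfa was at 493 and 476 CPM in the Bdnf pair and 622 and 292 CPM in the Hgf pair. Free RNA, measured in barcodes under 100 UMIs, held 878, 910.2, 825 and 527 CPM of Vegfa, and so stood above every type except AT1-like cells and, in the iPCKO libraries, arterial-like cells. Ciliated-like cells had 63.0, 101, 21.4 and 37.5 CPM. The airway and AT2-like cells lay between those and the gCap-like cells, with 117 to 257 CPM in club-like cells and 97.7 to 215 CPM in AT2-like cells.

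**Figure D1:**
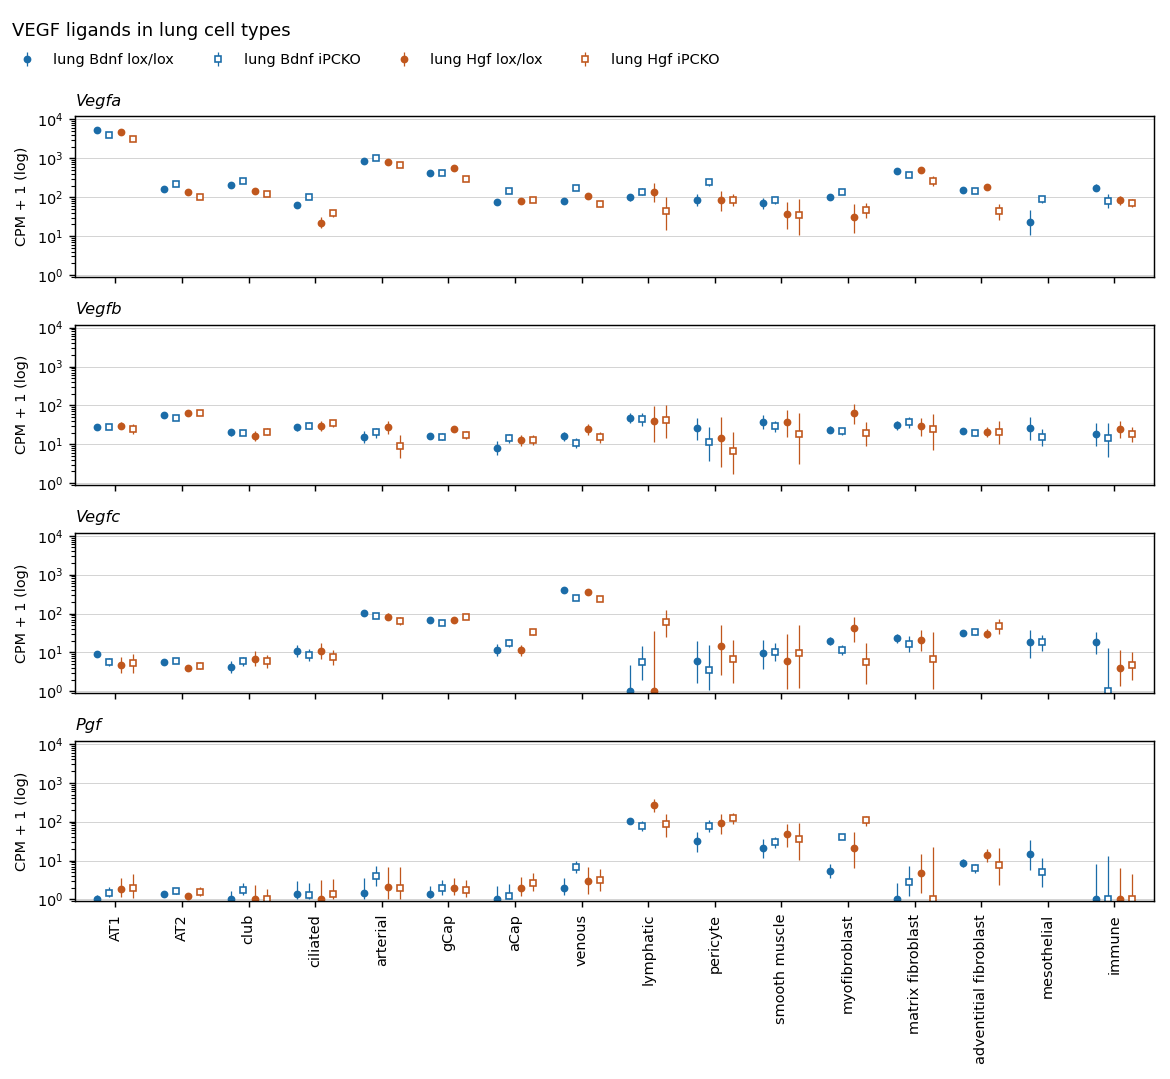
Levels of the 4 ligand genes in lung cell types (x axis) as CPM plus 1 on a log axis, 1 point per library (circles control, squares iPCKO, blue Bdnf, orange Hgf) with 95% counting intervals as bars. Vegfa peaks in AT1-like cells at 3088 to 5262 CPM, Vegfb in AT2-like, Vegfc in venous-like and Pgf in lymphatic-like cells of the controls. In the iPCKO lungs Pgf is highest in pericyte-like cells, with counting intervals that overlap those of lymphatic-like cells.

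In the cortex Vegfa was found mainly in astrocyte-like cells. Astrocyte-like cells had 904 and 920.1 CPM in the Nodal lox/lox and Nodal iPCKO libraries (again kept in this order) and held 91.6% and 90.4% of the Vegfa UMIs of gated barcodes. Fibroblast-like cells followed with 209 and 163 CPM and the oligodendrocyte lineage with 98.5 and 169 CPM, ranges that overlapped. Endothelial-like cells of the cortex had 5.95 and 3.71 CPM, from 55 and 62 UMIs, and free RNA of the same libraries held 210.2 and 136 CPM. Endothelial-like cells of the lung had 345, 387, 382 and 222 CPM. All 4 lung libraries were above both cortex libraries, with a mean on the log2(CPM + 1) scale 57.1-fold higher (exact permutation test over libraries, two-sided p = 0.133, the smallest that 4 against 2 libraries can give). Arterial-like cells were the highest endothelial group for Vegfa in both organs, with 22.6 and 18.6 CPM in the cortex, although there the values rest on 13 and 16 UMIs.

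Vegfb, whose product binds VEGFR1 and not VEGFR2, was spread widely at low levels. In the lung it was highest in AT2-like cells, at 56.4, 47.5, 64.2 and 64.6 CPM, above the 38.4 to 46.3 CPM of lymphatic-like cells, which rest on 4 and 5 UMIs in the Hgf libraries. The only other value in that range was 61.3 CPM in myofibroblast-like cells of the Hgf control, from 12 UMIs. AT2-like cells held 71.6%, 63.6%, 76.3% and 66.5% of its UMIs. In the cortex astrocyte-like cells were highest at 100.3 and 84.8 CPM, followed by neuron-like, macrophage-like and microglia-like cells, whose ranges overlapped. Capillary-like cells of the cortex had 8.98 and 8.84 CPM and aCap-like cells of the lung 7.21, 13.1, 11.6 and 12.02 CPM, the lowest means over libraries among the types of each organ.

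The vessel type with most Vegfc differed between the organs. In the lung it stood highest in venous-like cells, at 399, 258, 361 and 238 CPM, and arterial-like cells had 104, 85.7, 82.8 and 63.3 CPM. In the cortex arterial-like cells were highest, at 500.3 and 347 CPM, and venous-like cells had 23.9 and 16.3 CPM. The ranges of both types were separate in each organ, in opposite orders. The difference venous minus arterial on the log2(CPM + 1) scale was 1.58 to 2.11 in the 4 lung libraries and -4.33 in both cortex libraries (exact permutation test over libraries, two-sided p = 0.133, the smallest possible here, and 0.240 adjusted over the 9 genes). This comparison was chosen after the levels had been seen, and organ goes with age, dissociation and depletion, which cannot be told apart from it. Outside the endothelium, adventitial fibroblast-like cells had 30.8, 31.8, 29.1 and 46.9 CPM and cortex fibroblast-like cells 26.1 and 26.9 CPM. Lymphatic-like cells, the main target of VEGF-C, had 0 UMIs of Vegfc in both control lungs, which allows up to 3.02 and 28.8 CPM, and 3 and 7 UMIs in the Bdnf and Hgf iPCKO lungs.

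Pgf, whose product binds VEGFR1 and not VEGFR2, was found in lymphatic-like cells, mural cells and some fibroblast types, and at a few CPM at most in blood endothelium. Lymphatic-like cells had 103, 75.8, 269 and 84.4 CPM, pericyte-like cells 30.3, 76.9, 89.2 and 121 CPM and smooth muscle-like cells 20.3, 28.2, 46.3 and 34.8 CPM. Pericyte-like cells overlapped both of the others, lymphatic-like and smooth muscle-like cells did not overlap, and all 3 were above the 0.401 to 0.990 CPM of gCap-like cells, where only 3 to 5 UMIs were counted. Myofibroblast-like cells had 4.42, 40.3, 20.4 and 107 CPM, in both iPCKO lungs above the smooth muscle-like cells. In the cortex vascular smooth muscle-like cells had 110.4 and 109.9 CPM, pericyte-like cells 39.2 and 54.5 CPM and fibroblast-like cells 23.3 and 31.8 CPM. Capillary-like cells of the cortex had 0 Pgf UMIs in both libraries, which allows up to 0.929 and 0.737 CPM.

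Flt1 was found in all blood endothelial types of the lung and was lowest in arterial-like cells. It was at 1145, 1514, 1015 and 1243 CPM in gCap-like cells, 1300.1, 1279.6, 939 and 1056 CPM in aCap-like cells, 1275, 1340.4, 1136 and 753 CPM in venous-like cells and 1068, 968, 815 and 663 CPM in arterial-like cells, and each of these ranges overlapped the next. Arterial-like cells were below gCap-like cells in 4 of 4 libraries, by a mean difference of -0.49 (log2, arterial minus gCap; exact paired permutation p = 0.125, not adjusted, the smallest that 4 pairs can give). Unlike aCap against gCap, this comparison was not among those planned. Lymphatic-like cells had 42.3, 74.2, 19.2 and 160.4 CPM and were below gCap-like cells in all 4 libraries. In the cortex capillary-like cells had 2963 and 2904 CPM, arterial-like cells 2559 and 2530.0 CPM and venous-like cells 1071 and 983 CPM, so that venous-like cells were lowest there. In the comparison used for Vegfc, venous minus arterial was 0.18 to 0.48 (log2) in lung and -1.36 to -1.26 in cortex, with the same smallest possible exact permutation p of 0.133 and an adjusted value of 0.240. Pericyte-like cells of the cortex held 186 and 259 CPM of Flt1 while free RNA there held 1381 and 1213 CPM, and endothelial markers summed to 747 and 735 CPM in the same cells.

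Kdr separated the 2 alveolar capillary types. In aCap-like cells it was at 4195, 4374, 4322 and 3809 CPM, in gCap-like cells at 553, 709, 700.5 and 663 CPM. The aCap-like level was 6.37-fold higher on average, between 2.52 and 2.92 on the log2 scale and in 4 of 4 libraries (exact paired permutation test over libraries, two-sided p = 0.125, the smallest that 4 pairs can give, and 0.188 adjusted over the 9 genes). Flt1 did not follow: aCap minus gCap was -0.10, higher in 1 of 4 libraries (exact permutation p = 0.375). Of single aCap-like cells, 99.3 to 99.8% had a Kdr UMI, and 90.2 to 92.9% did when every barcode was thinned to 700 UMIs. For gCap-like cells the shares were 60.4 to 76.6% and 29.7 to 36.3%. AT2-like cells, which should lack Kdr, had 6.21 to 12.1% and, thinned, 0.998 to 2.29%, at median depths of 3616 to 8552 UMIs against 2070 to 4642 in aCap-like cells.

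Among endothelial types lymphatic-like cells came second for Kdr, at 953, 1841, 1019 and 2169 CPM, above every gCap-like value. Venous-like cells had 290.4, 726, 428 and 863 CPM and overlapped gCap-like cells, and arterial-like cells had 266, 236, 154 and 262 CPM. In the cortex the vessel types lay closer together, with 2169.9 and 2876 CPM in capillary-like, 1508 and 2292 CPM in venous-like and 1796 and 1894 CPM in arterial-like cells.

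Club-like cells, secretory cells of the airway epithelium, held more Kdr than other epithelial cells. They had 235, 408, 213 and 346 CPM, AT2-like cells 19.8, 44.3, 29.7 and 45.1 CPM and AT1-like cells 21.8, 48.4, 46.9 and 91.5 CPM, so all 4 club-like values lay above all values of both alveolar types, and also above the 13.1 to 32.2 CPM of ciliated-like cells. Endothelial markers summed to 84.2, 112, 136 and 154 CPM in club-like cells and to 259, 312, 323 and 306 CPM in AT2-like cells. With barcodes holding an endothelial marker UMI left out, club-like cells kept 227 and 374 CPM of Kdr in the Bdnf pair and 196 and 315 CPM in the Hgf pair, while AT2-like cells had 4.88 and 13.2 CPM and 8.06 and 10.99 CPM. The share of club-like cells with a Kdr UMI was 56.4 to 72.8%, and 12.1 to 20.7% after thinning, again above AT2-like cells. Flt1 was at 16.2, 24.3, 20.0 and 21.9 CPM in the same club-like cells. Mesothelial-like cells also held Kdr, at 699 and 972 CPM in the Bdnf control and iPCKO lungs, with endothelial markers summing to 304 and 284 CPM, and the Hgf libraries held too few of these cells for a value.

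Flt4 was highest in lymphatic-like cells. Lymphatic-like cells of the lung had 1411, 1276, 1067 and 785 CPM, from 112, 98, 33 and 35 barcodes. Next were gCap-like cells with 147, 153, 140.1 and 212 CPM and aCap-like cells with 184, 147, 102 and 97.3 CPM, which overlapped. Venous-like cells had 22.6, 28.7, 32.8 and 43.95 CPM and arterial-like cells 49.0, 40.5, 36.7 and 47.0 CPM, all below the capillary types. In the cortex capillary-like cells were also highest, at 117 and 116 CPM, above venous-like (86.3 and 85.7 CPM) and arterial-like cells (46.9 and 61.7 CPM). Venous minus arterial was below 0 in all 4 lungs (-1.08 to -0.09) and above 0 in both cortices (0.47 to 0.87, exact permutation p = 0.133, adjusted 0.240). Of the other genes in this comparison, Vegfa (-0.95, lung minus cortex) and Nrp1 (0.48) also had separate ranges with the same p, and Vegfb, Pgf, Kdr and Nrp2 overlapped.

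**Figure D2:**
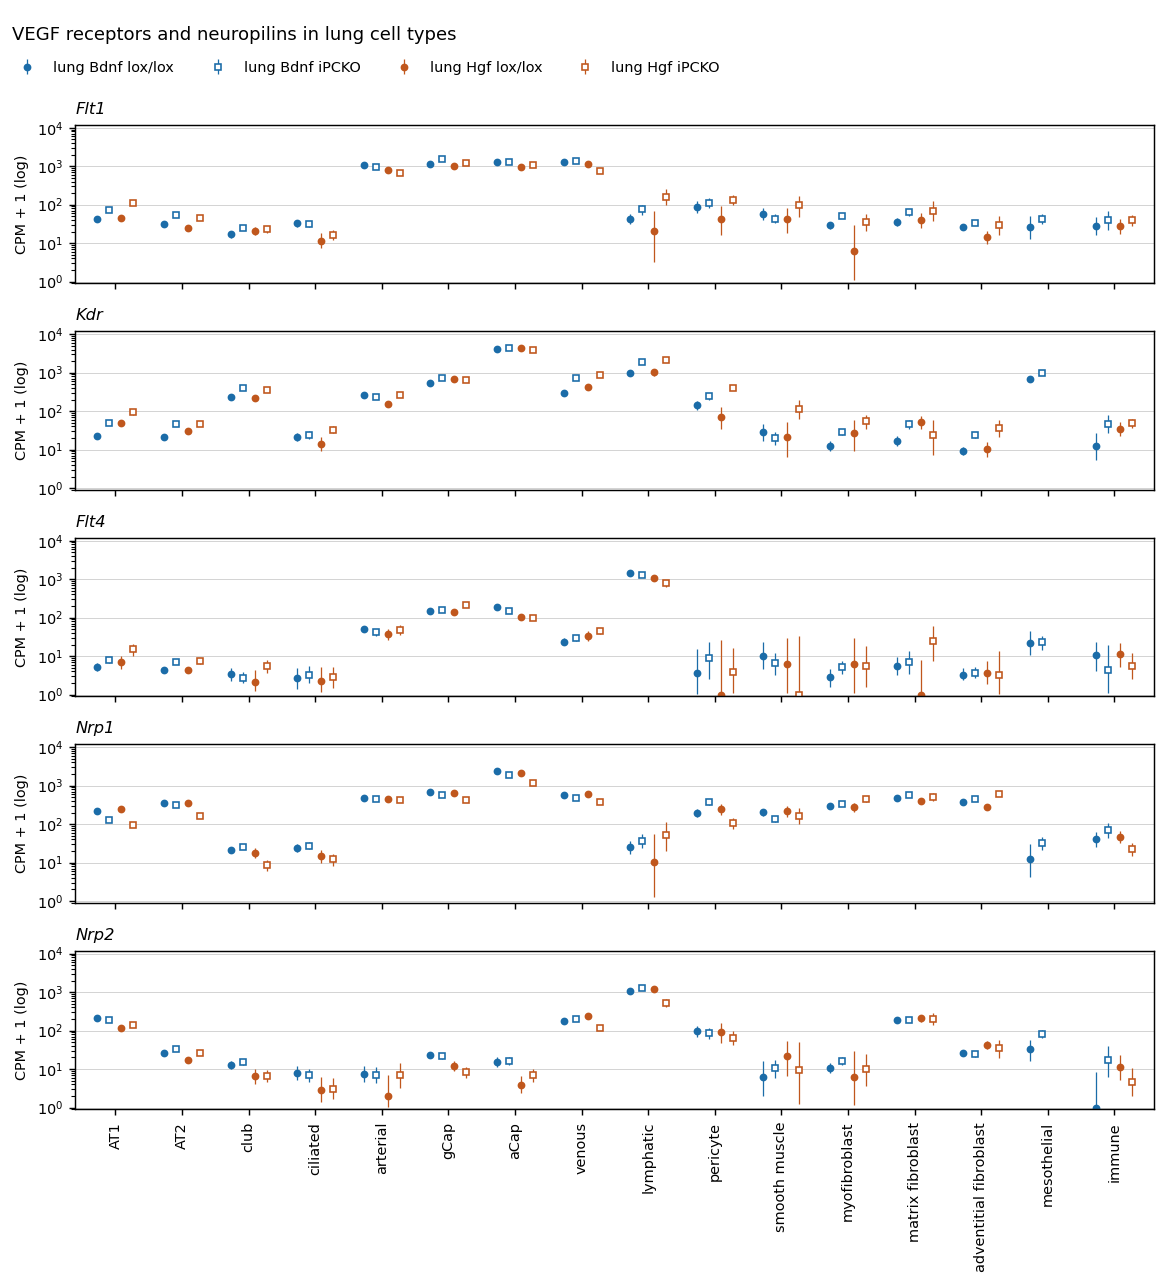
Levels of the 3 receptor and 2 neuropilin genes in lung cell types (x axis) as CPM plus 1 on a log axis, 1 point per library with 95% counting intervals (circles control, squares iPCKO, blue Bdnf, orange Hgf). Flt1 lies between 663 and 1514 CPM over all blood endothelial types, Kdr peaks in aCap-like cells at 3809 to 4374 CPM, and Flt4 and Nrp2 peak in lymphatic-like cells.

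Nrp1, the co-receptor with VEGFR2, had the same leading type as Kdr. In aCap-like cells it was at 2371, 1941, 2068 and 1175 CPM and in gCap-like cells at 668, 556, 644 and 432 CPM, with aCap-like cells 3.22-fold higher on average and higher in 4 of 4 libraries (exact paired permutation p = 0.125, adjusted 0.188). It was not limited to endothelium: matrix fibroblast-like cells had 473, 560.3, 399.5 and 510.3 CPM, and AT2-like cells 359, 318, 343 and 161 CPM. Club-like cells, which held Kdr, had 20.2, 24.8, 17.0 and 7.63 CPM. Lymphatic-like cells had 24.2, 36.3, 9.61 and 50.6 CPM, from 1 to 24 UMIs. In the cortex the highest type was macrophage-like, at 567 and 528 CPM from 25 and 24 barcodes, against 95.5 and 66.5 CPM in microglia-like and 228 and 163 CPM in capillary-like cells.

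Nrp2, the co-receptor with VEGFR3, was highest in lymphatic-like cells and, within blood endothelium, in venous-like cells. It was at 1081, 1293, 1239.8 and 532 CPM in lymphatic-like cells, at 177, 201, 242 and 117 CPM in venous-like cells and at 6.53, 6.09, 1.05 and 6.13 CPM in arterial-like cells of the lung. Venous-like cells of the cortex had 151 and 102 CPM and arterial-like cells 0 and 5.82 CPM, the first of these a count of 0 that allows up to 5.21 CPM. Venous-like cells were above arterial-like ones in all 6 libraries. Beyond vessels, matrix fibroblast-like cells had 187, 188, 207 and 203 CPM and AT1-like cells 212, 186, 118 and 137 CPM in the lung, both overlapping venous-like cells. In the cortex macrophage-like cells had 173 and 137 CPM, from 30 and 22 UMIs in 25 and 24 barcodes, and overlapped venous-like cells. Microglia-like cells had 65.5 and 76.2 CPM.

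**Figure D3:**
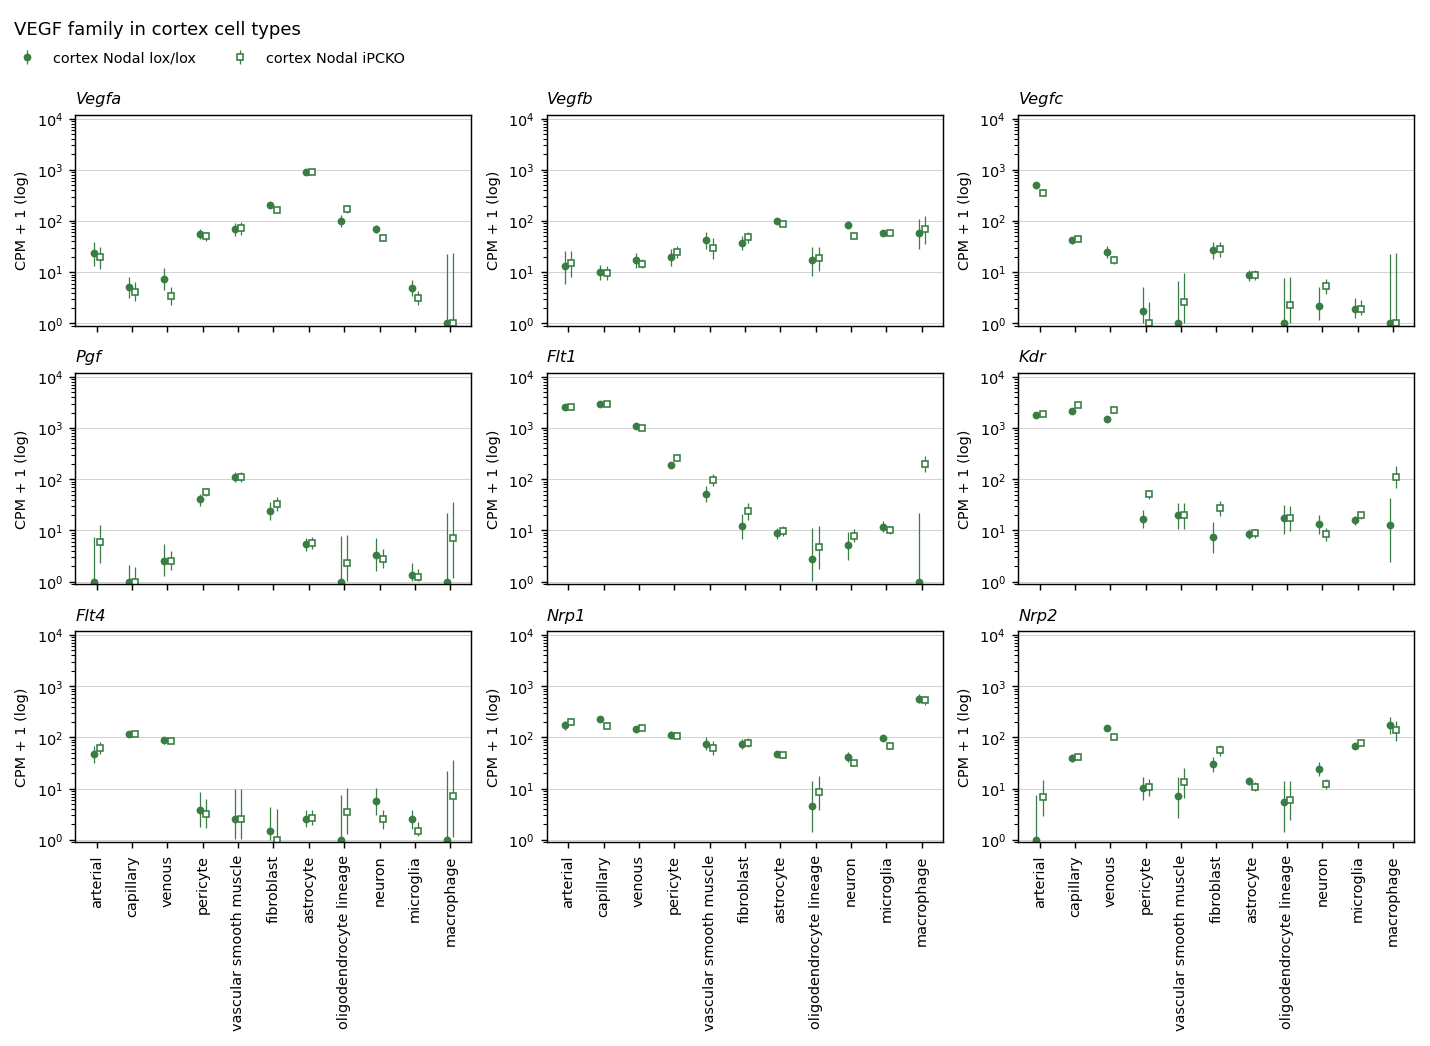
Levels of the 9 genes in cortex cell types (x axis) as CPM plus 1 on a log axis, 1 point per library (circles Nodal lox/lox, squares Nodal iPCKO) with 95% counting intervals. Vegfa peaks in astrocyte-like cells at 904 and 920.1 CPM, Vegfc in arterial-like cells, Pgf in vascular smooth muscle-like cells, Flt1, Kdr and Flt4 in capillary-like cells and Nrp1 and Nrp2 in macrophage-like cells. The macrophage-like values rest on 25 and 24 barcodes, and for Nrp2 their intervals overlap those of venous-like cells.

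Set side by side over all endothelial-like cells, levels of Vegfa, Vegfb, Vegfc and Nrp1 were higher in the lung libraries and levels of Flt1 and Kdr in the cortex libraries, while the order for Pgf, Flt4 and Nrp2 depended on the lymphatic-like cells that only the lung gate includes. Flt1 was at 1126, 1284, 955 and 1013 CPM in lung and 2107 and 1745 CPM in cortex, a difference of -0.82 (log2, lung minus cortex). Kdr was at 996, 1346, 1596 and 1501 CPM in lung and 1890.2 and 2484 CPM in cortex, a difference of -0.69. Nrp1 was at 837, 755, 1007 and 606 CPM in lung and 205 and 172 CPM in cortex and was 4.17-fold higher in lung. These 3 ranges did not overlap between organs, nor did those of Vegfa (above), Vegfb (0.38), Vegfc (0.95), Pgf (1.19) and Flt4 (0.41), each with the smallest possible exact permutation p of 0.133 and 0.150 adjusted over the 9 genes, so that no difference could pass 0.05. Nrp2 overlapped (32.0 to 102 CPM in lung, 70.6 to 73.5 CPM in cortex, p = 1, exact permutation test). Lymphatic-like cells held 88.7, 43.6, 60.9 and 23.8% of the Pgf UMIs, 38.2, 26.1, 8.17 and 4.44% of the Flt4 UMIs and 47.7, 35.1, 19.5 and 12.6% of the Nrp2 UMIs of endothelial-like cells in the 4 lungs. With them left out, an alternative chosen after seeing the data, Pgf was at 0.604, 2.79, 1.43 and 2.07 CPM in lung against 0.974 and 1.40 CPM in cortex and Flt4 at 105, 103, 99.0 and 129 against 101 and 98.9 CPM, so that both then overlapped (differences of 0.25 and 0.11, exact permutation p = 0.533 and 0.267). Nrp2 then no longer overlapped, at 54.6, 68.0, 42.3 and 28.2 CPM in lung against 70.6 and 73.5 CPM in cortex (-0.64, exact permutation p = 0.133), and the other 6 genes stayed separate in the same order. Lung and cortex also differed in age, dissociation and depletion, which cannot be told apart from organ.

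The comparisons of iPCKO with control were read against all genes with at least 20 UMIs in a pair. A gene was counted as past 1.5-fold when the CPM of the 2 libraries differed by at least that factor in either direction, with no test behind it. Over all genes the median log2 ratio lay between -0.10 and 0.09 in the types used. Among genes with at least 100 UMIs in a pair, the share past 1.5-fold in endothelial-like cells was 8.77% (Bdnf), 24.5% (Hgf) and 4.82% (Nodal). These shares are lower than those given below, which include genes with fewer UMIs. In the Bdnf lung, 0 of 9 of the family's genes with enough UMIs passed 1.5-fold over all endothelial-like cells (15.9% of all genes did), 0 of 8 in gCap-like (16.8%) and 0 of 8 in arterial-like cells (18.3%). The count was 3 of 8 in aCap-like (17.8%), 5 of 9 in venous-like (20.9%), 3 of 8 in lymphatic-like (21.2%), 5 of 8 in AT1-like (21.8%), 4 of 9 in AT2-like (17.2%), 3 of 8 in club-like (14.9%), 6 of 9 in myofibroblast-like (16.3%) and 4 of 6 in pericyte-like cells (25.8%). In AT1-like, AT2-like and myofibroblast-like cells these included Flt1, Kdr and Flt4, all higher in the iPCKO library, and in aCap-like cells they were Vegfa, Vegfb and Vegfc, also higher. The AT1 markers in aCap-like cells, given beside Vegfa, were also higher in this iPCKO library, and their part in the Vegfa ratio was not tested. With cell types from clusters Vegfc in aCap-like cells turned to -0.10. Of the 4 pericyte-like calls, Vegfa, Pgf, Kdr and Nrp1, all higher, Pgf alone was then past 1.5-fold, Vegfa and Nrp1 turning to -0.12 and -0.28 and Kdr being at 0.08, while without barcodes holding endothelial markers Pgf was inside 1.5-fold, at 0.20. In venous-like cells Vegfa, Pgf and Kdr were higher and Vegfb and Vegfc lower.

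The Hgf lungs differed more over all genes. There 4 of 9 passed 1.5-fold in endothelial-like cells, Vegfa, Vegfb, Nrp1 and Nrp2, all lower in the iPCKO library, where 31.8% of all genes passed it. The counts were 3 of 8 in aCap-like (31.2%), 3 of 8 in gCap-like (30.8%), 2 of 7 in arterial-like (34.8%), 7 of 8 in venous-like (33.1%), 4 of 5 in lymphatic-like (40.7%), 5 of 8 in AT1-like (31.2%), 5 of 8 in AT2-like (32.9%), 3 of 8 in club-like (31.8%), 5 of 5 in myofibroblast-like (42.4%) and 3 of 6 in pericyte-like cells (39.4%). In venous-like cells Kdr was higher and Vegfa, Vegfb, Vegfc, Flt1, Nrp1 and Nrp2 lower, and Nrp1 was among the lower genes in aCap-like, club-like, AT1-like, AT2-like and pericyte-like cells as well. In myofibroblast-like cells Nrp1 was among the higher genes. In the Nodal cortex only Vegfa passed in endothelial-like cells (1 of 9, 13.3% of all genes), lower in the iPCKO library, on 55 and 62 UMIs. Free RNA of Vegfa, at 210.2 and 136 CPM, was also lower there, and its part in the difference was not tested. None passed in capillary-like (0 of 8, 12.5%), arterial-like (0 of 6, 21%) or astrocyte-like cells (0 of 9, 12.6%), and 2 of 8 passed in venous-like (16.4%) and 1 of 7 in pericyte-like cells (16%). These were Kdr, higher in both types, and Vegfa, lower in venous-like cells.

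Kdr was past 1.5-fold in all 3 pairs in venous-like and in pericyte-like cells, higher in the iPCKO library each time, and no other of the 9 genes was past it in 3 pairs in one type. Venous-like cells gave the larger counts. In the lung it was at 290.4 CPM in the Bdnf control and 726 CPM in the Bdnf iPCKO library, a log2 ratio of 1.32 (1.22 to 1.42), the brackets giving the 95% counting interval here and below. The Hgf control and iPCKO libraries had 428 and 863 CPM, a ratio of 1.01 (0.88 to 1.14). In the cortex it was at 1508 and 2292 CPM, a ratio of 0.60 (0.55 to 0.66). Both iPCKO lungs were above both control lungs, whose own difference was 0.56. In venous-like cells 212 of 10758 genes (1.97%) were more than 1.5-fold higher in both iPCKO lungs and 28 of 10150 genes (0.276%) in all 3 iPCKO libraries. The share of venous-like cells with a Kdr UMI, after thinning to 700 UMIs, was 17.8%, 37.7%, 25.7%, 41.8%, 62.9% and 76.9% in the 6 libraries, higher in each iPCKO library than in its control. Over all alternatives the Kdr ratio stayed between 1.14 and 1.46, 0.89 and 1.11, and 0.59 and 0.66 in the Bdnf, Hgf and Nodal pairs.

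Other values moved with this one in some pairs. Markers of aCap cells summed to 116, 216, 107 and 99.8 CPM in venous-like cells of the 4 lungs, thus higher in the Bdnf iPCKO but not in the Hgf iPCKO library. Without the barcodes that held such a marker, the Kdr ratios were 1.27 (1.14 to 1.40) and 1.03 (0.88 to 1.18), both still past 1.5-fold. Free RNA held 184, 305, 274, 438, 684 and 916 CPM of Kdr, higher in each iPCKO library, while arterial-like cells of the same libraries had 266, 236, 154 and 262 CPM in lung and 1796 and 1894 CPM in cortex, with ratios of -0.17 (-0.34 to 0.00), 0.76 (0.47 to 1.07) and 0.08 (-0.04 to 0.19). Venous markers summed to 7977, 6972, 9488 and 7904 CPM in the lungs and venous-like cells made up 17.1 and 27.9% of endothelial-like cells in the 2 cortex libraries. The part of free RNA and of the makeup of the gate in the difference was not tested.

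In pericyte-like cells Kdr rested on few UMIs, 56 and 96 in the Bdnf lungs, 10 and 145 in the Hgf lungs and 21.5 and 113 in the cortex. The log2 ratios were 0.80 (0.31 to 1.30), 2.57 (1.65 to 3.66) and 1.67 (0.97 to 2.37), and 18 of 4549 genes (0.396%) were higher past 1.5-fold in all 3 pairs in this type. The control lungs differed by -1.04 (142 and 68.6 CPM), more than the Bdnf ratio, and free RNA of Kdr, given above, was also higher in each iPCKO library. Endothelial markers summed to 559.9, 544, 501 and 649 CPM in these cells of the 4 lungs, against 7341 to 9285 CPM in endothelial-like cells. Without the barcodes that held one, the Hgf ratio was 1.61 (0.39 to 3.13), the Bdnf pair held 2 and 25 UMIs and was given no ratio, since these ratios were formed only above 3 UMIs in each library, and too few barcodes were left in the control cortex. With cell types taken from clusters instead of gates the 3 ratios were 0.08, 0.37 and 0.24, all inside 1.5-fold.

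Kdr was also higher in lymphatic-like cells of both iPCKO lungs, by 0.95 (0.82 to 1.08) and 1.09 (0.76 to 1.43), the latter from 106 and 257 UMIs in 33 and 35 barcodes. The 2 lymphatic-like control levels differed by 0.10. In these cells 48 of 2216 genes (2.17%) were higher past 1.5-fold in both lung pairs. Markers of aCap cells summed to 272, 474, 125 and 414 CPM there, and lymphatic markers to 27790, 21976, 32985.5 and 17624 CPM. Without the barcodes holding aCap markers the Kdr ratios were 0.72 (0.51 to 0.94) and 1.13 (0.75 to 1.51). That left 38 of 112, 42 of 98, 26 of 33 and 23 of 35 barcodes. The aCap markers and free RNA were both higher and the lymphatic markers lower in each iPCKO library, and their part in the difference was not tested. With cell types from clusters no ratio was formed, since lymphatic-like clusters were found in the Bdnf iPCKO lung only. Flt4 in the same cells was lower, at -0.15 (-0.27 to -0.02) and -0.44 (-0.86 to -0.03), inside 1.5-fold.

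In club-like cells Kdr was higher by 0.80 (0.71 to 0.89) in the Bdnf and 0.70 (0.56 to 0.84) in the Hgf iPCKO lung, where 231 of 11907 genes (1.94%) were higher past 1.5-fold in both pairs. Without barcodes holding an endothelial marker the ratios were 0.72 (0.59 to 0.84) and 0.68 (0.51 to 0.86). The control levels differed by -0.14. Free RNA held 184, 305, 274 and 438 CPM of Kdr against 235, 408, 213 and 346 CPM in club-like cells, both higher in each iPCKO lung, and its part in the difference was not tested. With cell types from clusters the Hgf ratio was 0.47, inside 1.5-fold. In capillary cells, the main site of Kdr, the ratios were inside 1.5-fold in each pair. The aCap-like cells gave 0.06 (0.03 to 0.09) in the Bdnf and -0.18 (-0.22 to -0.15) in the Hgf lung, gCap-like cells 0.36 (0.30 to 0.42) and -0.08 (-0.16 to -0.00), and cortex capillary-like cells 0.41 (0.36 to 0.45). Over all endothelial-like cells the ratios were 0.44, -0.09 and 0.39. The aCap-like share of endothelial-like cells was 13.2%, 18.5%, 20.8% and 24.0% in the 4 lungs, and its part in the pooled ratios was not tested.

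**Figure D4:**
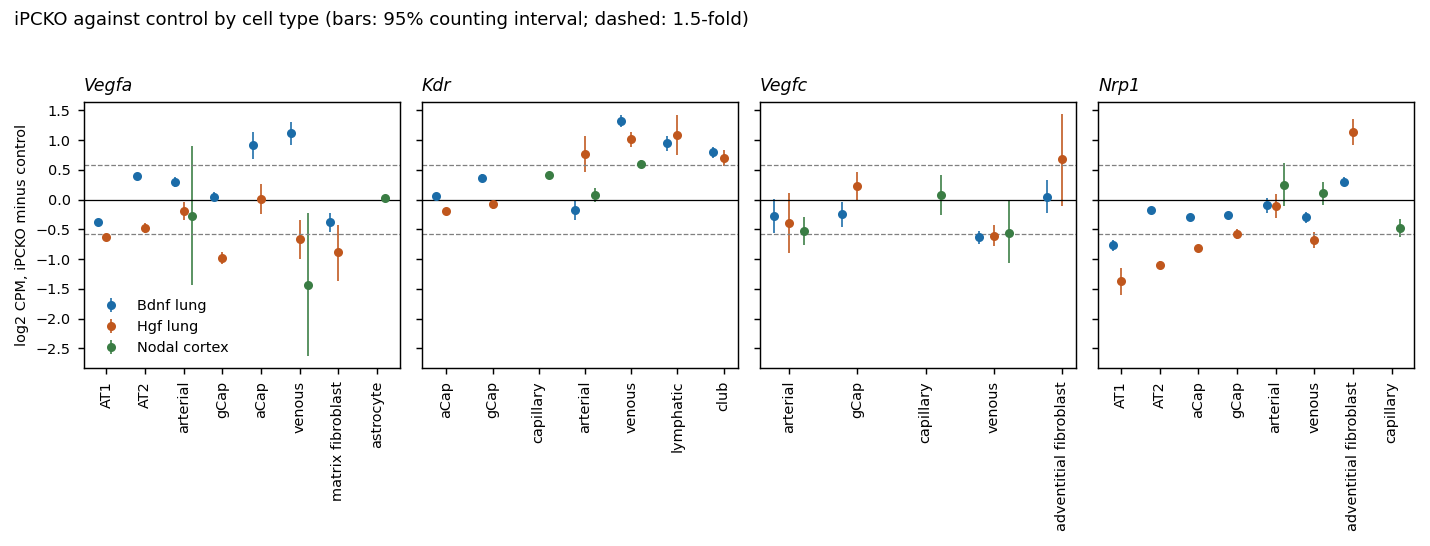
Log2 ratio of CPM, iPCKO over control (y axis), for Vegfa, Kdr, Vegfc and Nrp1 in selected cell types (x axis), 1 point per pair (blue Bdnf lung, orange Hgf lung, green Nodal cortex) with 95% counting intervals and dashed lines at 1.5-fold. Kdr in venous-like cells is above the upper line in all 3 pairs, at 1.32, 1.01 and 0.60, while Vegfa in venous-like cells points up in the Bdnf lung (1.11) and down in the Hgf lung (-0.67). Free RNA held more Vegfa than venous-like cells in each lung library.

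Vegfc in venous-like cells was lower in all 3 iPCKO libraries, past 1.5-fold in both lungs. The log2 ratios were -0.63 (-0.74 to -0.52) in the Bdnf lung, -0.60 (-0.78 to -0.43) in the Hgf lung and -0.55 (-1.07 to -0.02) in the cortex, where 48 and 95 UMIs were counted. Free RNA held 90.4, 59.5, 79.3, 86.1, 56.0 and 38.9 CPM of Vegfc in the 6 libraries, lower in the Bdnf iPCKO lung and the iPCKO cortex and higher in the Hgf iPCKO lung than in the control, and its part in the difference was not tested. Both iPCKO lungs were below both control lungs, which differed by -0.14. In these cells 421 of 10758 genes (3.91%) were more than 1.5-fold lower in both lung pairs. Without barcodes holding aCap markers the ratios were -0.52 (-0.67 to -0.37) and -0.63 (-0.82 to -0.44), the former then inside 1.5-fold. With cell types from clusters the Hgf ratio was -0.47, also inside it, and the cortex ratio -0.27. Arterial-like cells of the cortex, the main site of Vegfc there, gave -0.53 (-0.77 to -0.29).

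Vegfa in AT1-like cells was lower in both iPCKO lungs, with log2 ratios of -0.37 (-0.39 to -0.36) and -0.63 (-0.67 to -0.59), and passed 1.5-fold in the Hgf pair only. There it was inside 1.5-fold with a stricter gate (-0.51) and with cell types from clusters (-0.57). The control libraries differed by -0.14, and both iPCKO values lay below both control values. In AT1-like cells 289 of 11422 genes (2.53%) were lower past 1.5-fold in both pairs, and Vegfa was not among them. Endothelial markers summed to 444, 487, 749.9 and 811 CPM in AT1-like cells, and without the barcodes holding them the ratios were -0.42 (-0.47 to -0.38) and -0.59 (-0.69 to -0.49). That left 177 of 1347, 680 of 2416, 135 of 798 and 213 of 718 barcodes. In gCap-like cells the pairs parted, with 0.05 (-0.03 to 0.13) in the Bdnf and -0.97 (-1.08 to -0.87) in the Hgf lung. Free RNA of Vegfa was also lower in the Hgf iPCKO lung than in its control (825 and 527 CPM, control first). In the Bdnf pair it was not lower (878 and 910.2 CPM). It lay above the gCap-like level in each lung library, and its part in the gCap-like ratios was not tested. Astrocyte-like cells of the cortex gave 0.03 (-0.02 to 0.07).

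Nrp1 was lower in AT1-like cells of both iPCKO lungs past 1.5-fold, at -0.77 (-0.86 to -0.67) and -1.37 (-1.60 to -1.14), and was thus among the genes just counted. AT1-like cells had 218, 128, 245 and 94.9 CPM, with both iPCKO values below both controls, which differed by 0.17. In aCap-like cells, its main site, the ratios were -0.29 (-0.34 to -0.24) and -0.81 (-0.87 to -0.76), and in AT2-like cells -0.18 (-0.21 to -0.14) and -1.09 (-1.16 to -1.02), so that the Hgf pair alone was past 1.5-fold. Free RNA in the lungs held 605, 492, 654 and 316 CPM of Nrp1, lower in both iPCKO libraries, and its part in the AT1-like values was not tested. Without barcodes holding endothelial markers the AT1-like ratios were -0.83 (-1.09 to -0.58) and -2.01 (-2.68 to -1.39). This filter left 177 of 1347, 680 of 2416, 135 of 798 and 213 of 718 barcodes, an unlike share within each pair. The Hgf ratio then rests on 94 and 28 UMIs. Adventitial fibroblast-like cells had higher levels in both iPCKO lungs, at 0.30 (0.22 to 0.37) and 1.14 (0.92 to 1.35). The controls there differed by -0.46, more than the Bdnf ratio. Adventitial markers summed to 8301, 7263, 9675 and 5594 CPM in these cells, lower in each iPCKO lung, and their part in the ratios was not tested. With cell types from clusters no Hgf ratio was formed, since no such cluster was found in the Hgf iPCKO lung.

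Pgf in myofibroblast-like cells was higher in both iPCKO lungs. It was at 4.42, 40.3, 20.4 and 107 CPM, from 16, 174, 4 and 46 UMIs, with ratios of 3.19 (2.45 to 4.03) and 2.39 (0.94 to 4.33). Both iPCKO values lay above both controls, but the controls themselves differed by 2.21. In these cells 88 of 5265 genes (1.67%) were higher past 1.5-fold in both pairs. Smooth muscle markers summed to 898, 653, 1185 and 531 CPM and pericyte markers to 233, 267, 455 and 100.1 CPM in myofibroblast-like cells, and both of those types hold Pgf. In the Bdnf pair the ratio was 2.61 (1.65 to 3.73) without barcodes holding pericyte markers and 1.602 (0.23 to 3.32) without those holding smooth muscle markers. In pericyte-like cells themselves Pgf gave 1.34 (0.33 to 2.44), 0.44 (-0.48 to 1.46) and, in the cortex, 0.48 (0.01 to 0.97), and without barcodes holding endothelial markers the 2 lung ratios were 0.20 (-1.23 to 1.84) and 0.20 (-1.20 to 1.82).

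The 3 receptor genes were higher past 1.5-fold in AT1-like and AT2-like cells of both iPCKO lungs, while free RNA of Flt1 and Kdr was also higher in both and that of Flt4 was lower in the Bdnf and higher in the Hgf iPCKO lung (39.9, 27.7, 50.5 and 73.5 CPM). In AT1-like cells 541 of 11422 genes (4.74%) and in AT2-like cells 645 of 16793 genes (3.84%) did the same. Flt1 in AT2-like cells gave 0.83 (0.74 to 0.92) and 0.86 (0.70 to 1.02), Kdr in the same cells 1.16 (1.05 to 1.27) and 0.61 (0.46 to 0.76). Flt1 in free RNA stood at 390.0, 446, 389.6 and 655 CPM and Kdr at 184, 305, 274 and 438 CPM. Median UMIs per barcode were 7836, 4011.5, 4014 and 2679 in AT1-like and 8552.5, 5979.5, 4747 and 3615.5 in AT2-like cells, lower in each iPCKO lung than in its control. The part of free RNA and of depth in these ratios was not tested. Between the control lungs Kdr differed by 1.11 in AT1-like and 0.58 in AT2-like cells and Flt1 by 0.07 and -0.36, and the Kdr level of the Hgf control in AT1-like cells (46.9 CPM) was close to that of the Bdnf iPCKO lung (48.4 CPM). Endothelial markers in AT2-like cells summed to 259, 312, 323 and 306 CPM, and 1992 of 6024, 2923 of 7046, 2387 of 5700 and 2287 of 3922 barcodes held none of them. With barcodes holding them left out, the ratios were 1.14 (0.87 to 1.41) and 0.52 (0.12 to 0.91) for Flt1 and 1.44 (1.06 to 1.84) and 0.45 (-0.00 to 0.89) for Kdr, so that both genes were then inside 1.5-fold in the Hgf pair, the highest level left in AT2-like cells being 23.2 CPM of Flt1 in the Bdnf iPCKO lung. In AT1-like cells without such barcodes Flt1 gave 1.51 (0.65 to 2.47) and 0.54 (-0.81 to 2.00), the latter inside 1.5-fold, and Kdr 1.23 (0.18 to 2.44) in the Bdnf pair, while the Hgf pair held 1 and 19 UMIs and was given no ratio. With 10% of the UMIs of each cell type taken off at the level of free RNA, the Kdr ratio in AT2-like cells of the Hgf pair turned to -0.75.

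The wider pathway was followed as 5 lists with 63 genes in endothelial-like cells, each read against all genes in these cells. Of all genes, 8.68% were higher and 7.25% lower past 1.5-fold in the Bdnf lung, 14.9% and 16.9% in the Hgf lung and 5.54% and 7.76% in the cortex. Of the genes of tip cells and of the response to VEGF, the Bdnf lung had 5 higher and 1 lower of 14, with the immediate-early transcription factor genes Nr4a1, Nr4a2 and Egr3, the phosphatase gene Dusp5 and the protease gene Adamts1 higher, named after their values had been seen, the Hgf lung 1 higher and 7 lower of 14, and the cortex 0 higher and 0 lower of 14. Their median log2 ratios were -0.01, -0.48 and 0.16, against medians of -0.01, -0.04 and -0.05 over all genes. The chemokine receptor gene Cxcr4 was lower past 1.5-fold in both iPCKO lungs, at -0.89 (-0.99 to -0.80) and -1.55 (-1.75 to -1.35). Apln, which encodes the peptide apelin and was singled out after its values had been seen, went from 261 to 24.3 CPM in the Hgf lung, a ratio of -3.42 (-3.58 to -3.27), against -0.38 (-0.45 to -0.31) in the Bdnf lung and -0.02 (-0.07 to 0.03) in the cortex.

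Among hypoxia-response genes the counts were 3 higher and 0 lower of 15 in the Bdnf lung, 6 higher and 1 lower of 15 in the Hgf lung and 0 higher and 2 lower of 14 in the cortex. Slc2a1, the glucose transporter GLUT1, was higher in both iPCKO lungs, at 0.68 (0.40 to 0.96) and 1.11 (0.74 to 1.48), as was Bnip3, a mitophagy gene, at 0.86 (0.72 to 0.997) and 1.97 (1.82 to 2.13). In the cortex Adm, which encodes adrenomedullin, was lower at -0.62 (-0.70 to -0.53), and Vldlr at -1.66 (-3.12 to -0.31) on 14 and 8 UMIs. The 3 lists left were semaphorin 3 ligands and plexins, with 1 higher and 0 lower of 12, 1 higher and 5 lower of 11 and 0 higher and 0 lower of 8, receptor partners and signal transducers, with 1 higher and 0 lower of 18, 1 higher and 2 lower of 18 and 1 higher and 1 lower of 18, and VEGF-D with the VEGF-C processing genes Ccbe1 and Adamts3, with 0 higher and 0 lower of 3, 2 higher and 0 lower of 3 and 0 higher and 0 lower of 2. The integrin gene Itgb3 was at 1.64 (0.70 to 2.71) in the cortex from 11 and 62 UMIs, and the protein kinase C gene Prkca at -0.71 (-1.11 to -0.30).

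Over 15 cell types of the 2 control lungs, the genes whose pattern of log2(CPM + 1) was most like that of each of the 9 were ranked among 14227 genes, as a description, since the types share library and depth. Vegfa was most like Gm8909, Col4a3 and Scel (r between 0.82 and 0.85), Vegfb like Hadha, Cd276 and Agpat2, Vegfc like Jam2, Gm4951 and Smad7, and Pgf like Hoxb3os, Rgs7bp and Gnas. Flt1 was most like Gbp4, Cyyr1 and Calcrl (r between 0.96 and 0.97), Kdr like Dgkz, Btnl12 and Sema7a (0.89 to 0.91), Flt4 like Lrrc70, Stab1 and Rgl2, and Nrp2 like Zbtb24, Wipf3 and Trappc12. The closest match of all was Gm56862 with Nrp1 (r = 0.993), followed by Abcd4 and Vps8. Gm56862 is annotated as a long non-coding RNA on the same strand as Nrp1, starting 341 bases beyond the end of Nrp1, so that reads of longer Nrp1 transcripts and of this gene cannot be told apart by their position.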

How the data were processed

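RNA of single cells had been captured on the BD Rhapsody platform in 6 libraries, 4 of lung and 2 of cerebral cortex. The authors aligned reads with STARsolo (STAR 2.7.10a) to GRCm39 without a filter on cells and shared reads that map to several genes by expectation maximisation. The deposited values are therefore estimated counts of UMIs per gene and barcode, 8.50 to 9.95% of the entries not whole. Annotation versions differed between the sources, and a strand setting was not given in the sources used here. Counts were used as deposited, in Python 3.11.15 with scipy 1.17.1.

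Barcodes with at least 1500 UMIs (700 in the Hgf libraries) were kept, with no doublet caller in the values reported. A barcode was given the cell type whose marker genes were highest in it relative to the barcodes richest in them. This scale was set over the 2 libraries of each pair together. At least 3 markers (2 for endothelial subtypes) had to be found and the next type had to be clearly lower. These limits were set after looking at marker levels and barcode numbers only. UMIs were summed per library and type and divided by all UMIs of the same cells (CPM), with exact Poisson 95% intervals, ratios with conditional exact 95% intervals, and shares of cells with Clopper-Pearson intervals; all cover counting error only. A 0 was read as up to 3 UMIs. Types with fewer than 20 barcodes and genes with fewer than 20 UMIs in a pair were not compared, and ratios without barcodes of another marker list needed more than 3 UMIs in each library.

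Exact permutation tests ran over libraries on log2(CPM + 1), two-sided, with Benjamini-Hochberg adjustment over the 9 genes. Named list genes were those past 1.5-fold in the same direction in both lung pairs or in the cortex pair, in endothelial-like cells, and 6 more were chosen after their values had been seen, as stated beside them. The members and lists were chosen with earlier results of these data known. The calculation of ratios and intervals was tried on simulated Poisson counts with known folds, which hold no difference between mice or libraries. Alternatives were other UMI minimums, a stricter gate, Leiden clusters (scanpy 1.11.5), quality and doublet filters, other scalings, rounding and removal of free RNA.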

Additional observations from a re-analysis of the deposited data

Results flagged for a closer look

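In 4 cases a ratio past 1.5-fold in one lung pair pointed the other way past 1.5-fold in the other lung pair, and the difference between the pairs was not tested. Kdr in matrix fibroblast-like cells gave a log2 ratio of 1.48 in the Bdnf and -1.11 in the Hgf lung, from 35, 51, 27 and 4 UMIs. Nrp1 gave 0.93 and -1.25 in pericyte-like cells and 0.83 and -1.12 in immune-like cells. Vegfa in venous-like cells gave 1.11 and -0.67, from 79.6 to 172 CPM and from 105 to 65.8 CPM. Free RNA of Vegfa stood above these levels, at 878 and 910.2 CPM in the Bdnf and 825 and 527 CPM in the Hgf pair, and its part was not tested. With cell types from clusters Kdr in matrix fibroblast-like cells of the Hgf lung was 1.53 and Nrp1 in pericyte-like cells of the Bdnf lung -0.28, so that the pairs did not part in this way.

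The difference between venous-like and arterial-like cells went one way in all 4 lungs and the other way in both cortices for 3 genes, in a comparison chosen after the levels had been seen. Lung minus cortex, it was 6.21 for Vegfc, 1.66 for Flt1 and -1.12 for Flt4 (log2; exact permutation p = 0.133 for each, the smallest this design can give). The venous-like gate of the cortex also held capillary markers, at a lower level than capillary-like cells, and the part of this in these differences was not tested. No group held 4 samples, so single samples could not be examined for standing apart from their group.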

How the results depend on the processing

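No paired analysis was possible because each condition had 1 library and the replicate number only names it, so that no replicate block could enter the iPCKO against control comparisons. Cell types were compared within libraries. Of 4236 alternative values, 3754 stayed within the counting interval or, for comparisons between cell types or organs, kept their sign, or, for counts of genes, stayed within 1.5 times. In 26 cases a ratio past 1.5-fold, or a comparison between cell types or organs, changed sign, and 160 other values did so that were inside 1.5-fold as reported. With cell types from clusters, of 99 ratios past 1.5-fold, 63 stayed past it. The cause of these changes was not tested, except where an alternative itself changes the number of genes or libraries. Genes with fewer than 20 UMIs in a pair were not compared, and lymphatic-like values of the Hgf lungs rest on 33 and 35 barcodes.

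The Kdr ratio over endothelial-like cells was, in the Bdnf lung, 0.37 at 3000 UMIs, 0.52 as a mean over cells and 0.33 with clusters, in the Hgf lung -0.53 at 3000 UMIs, 0.094 as a mean over cells and -0.026 with median-of-ratios scaling, and in the cortex 0.42 with clusters and 0.45 with that scaling. Vegfa in AT1-like cells of the Bdnf lung gave -0.35 at 3000 UMIs, with a stricter gate and with mitochondrial and marker genes left out, -0.43 with median-of-ratios scaling and -0.42 without endothelial marker barcodes, and of the Hgf lung -0.51 with a stricter gate and -0.57 with clusters. Kdr in venous-like cells gave 1.46 with a stricter gate and 1.14 with clusters in the Bdnf lung, and 0.66 with a stricter gate in the cortex. Genes past 1.5-fold in endothelial-like cells numbered 3083, 5406 and 2124 in the Bdnf, Hgf and Nodal pairs, 1204, 2996 and 546 with at least 100 UMIs, and 11798, 14154 and 11796 with no minimum, alternatives that change the number of genes tested.

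With each library left out in turn, Vegfa lung over cortex was 5.56 to 6.12, Kdr lung over cortex -0.89 to -0.50, Kdr aCap over gCap 2.59 to 2.72 and the Vegfc venous over arterial difference, lung minus cortex, 6.13 to 6.31 (log2). Sign changes with clusters were Vegfa -0.12 and Nrp1 -0.28 in pericyte-like, Vegfa -0.55, Flt1 -0.21 and Nrp1 -0.14 in mesothelial-like, Vegfa 0.70 in immune-like and Vegfc -0.10 in aCap-like cells of the Bdnf lung, and Vegfa 0.10 and Kdr 1.53 in matrix fibroblast-like and Vegfc -0.042 in aCap-like cells of the Hgf lung. A stricter gate turned Pgf in AT2-like (-0.28) and Nrp1 in lymphatic-like cells (-0.76) of the Bdnf lung. Flt1 in club-like cells of that lung was -0.16 without endothelial marker barcodes, Kdr in AT2-like cells of the Hgf lung was -0.75 with free RNA taken off, and Kdr in neuron-like cells was 0.18 as a mean over cells. At 3000 UMIs aCap over gCap was 0.0020 for Pgf and 0.028 for Flt1, Nrp2 lung over cortex was 0.16, and its venous over arterial difference, lung minus cortex, was 0.0039. With each library left out in turn, signs changed for Pgf aCap over gCap (-0.38 to 0.042, above 0 without the Bdnf iPCKO lung), Nrp2 lung over cortex (-0.38 to 0.17, above 0 without the Hgf iPCKO lung) and the venous over arterial difference of Vegfb (-0.52 to 0.011, above 0 without the Bdnf iPCKO lung), Pgf (-0.72 to 1.85, below 0 without the iPCKO cortex) and Nrp2 (-2.16 to 1.17, above 0 without the control cortex). That difference for Pgf was -0.085 as a mean over cells and -1.36 with clusters. Without lymphatic-like cells, lung over cortex was 0.25 for Pgf, 0.11 for Flt4 and -0.64 for Nrp2. Removal of marker-holding barcodes, of lymphatic-like cells and of single libraries was chosen after seeing the data.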
